A study of Homo sapiens with 16 samples.

Results

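The loci described here are 3 stretches of the human genome that are textbook examples of CTCF and cohesin binding: the H19 and IGF2 region, the beta-globin cluster from HBB to HBE1, and the alpha, beta and gamma protocadherin clusters, whose first genes are PCDHA1, PCDHB1 and PCDHGA1. The rule for members used position and no measured value. A listed peak belonged if it overlapped by at least 1 bp the window on chromosome 11 from 1900000 to 2180000 (H19-IGF2, 280 kb), the window on chromosome 11 from 5150000 to 5300000 (beta-globin, 150 kb) or the window on chromosome 5 from 140130000 to 140890000 (protocadherin, 760 kb), all in hg18. In all, 128 of the 146596 peaks in the 12 lists belonged: 54 at H19-IGF2, 7 at beta-globin and 67 at the protocadherins.

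The peaks came from chromatin immunoprecipitation and sequencing in the colon adenocarcinoma cell line LoVo, with 1 library for each target in each of 2 phases of the cell cycle. S-phase cells had been through 12 h in 2 mM thymidine, 8 h of release and 12 h in thymidine again. M-phase cells had 12 h in thymidine and then 8 h in nocodazole at 200 ng/ml, which halts cells in mitosis. The targets were CTCF, the cohesin subunit RAD21, the transcription factors HNF4A, KLF5 and MYC, and histone H3 as a chromatin control. All had a rabbit IgG library as background except CTCF, which had goat IgG. The series' design text speaks of RAD21 knockdown by siRNA, which none of the labels of these 16 libraries names.

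CTCF is a zinc-finger protein that binds a long DNA motif and marks the boundaries of chromatin domains. Cohesin, a protein ring, keeps sister chromatids paired and extrudes loops of chromatin, which come to rest at bound CTCF. At H19-IGF2, CTCF binds the unmethylated imprinting control region of the maternal allele and shields IGF2, a growth factor gene, from enhancers near H19, a non-coding RNA gene. The beta-globin genes, which encode chains of haemoglobin, are flanked by CTCF sites and are silent outside the red blood cell lineage. The clustered protocadherins encode cell-surface proteins by which neurons tell their own branches from those of others. The alpha and gamma clusters string together alternative first exons, the beta cluster holds separate genes, and most of their promoters carry a conserved element that CTCF is known to recognise.

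The promoter letters are shown first, because CTCF binding in the protocadherin clusters is known from such promoters. RefSeq promoters on GRCh38.p14, each from 250 bases before to 50 after the start of a gene, were held for H19, PCDHA1, PCDHB1 and PCDHGA1 among the 7 genes named for these loci, and for 13 alpha, 14 beta and 20 gamma protocadherin genes. Each line gives 40 bases on the plus strand, 5′ to 3′, around the match nearest the 5′ end of the promoter that has room on both sides. The lines are from the first 3 promoters of each cluster in genome order with such a match, and the capitals mark GNCGCT, letters chosen after the promoters had been read.
PCDHA1 chr5:140786083-140786122: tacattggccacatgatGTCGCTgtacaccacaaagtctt
PCDHA2 chr5:140794778-140794817: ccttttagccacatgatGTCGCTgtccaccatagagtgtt
PCDHA4 chr5:140806976-140807015: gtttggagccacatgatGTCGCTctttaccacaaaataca
PCDHB1 chr5:141051271-141051310: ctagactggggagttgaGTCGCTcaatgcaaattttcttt
PCDHB2 chr5:141094541-141094580: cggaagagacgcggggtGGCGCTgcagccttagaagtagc
PCDHB3 chr5:141100390-141100429: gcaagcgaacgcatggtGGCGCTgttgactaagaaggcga
PCDHGA1 chr5:141330400-141330439: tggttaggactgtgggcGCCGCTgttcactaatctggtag
PCDHGA2 chr5:141338700-141338739: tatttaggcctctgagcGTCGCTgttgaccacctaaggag
PCDHGA3 chr5:141343764-141343803: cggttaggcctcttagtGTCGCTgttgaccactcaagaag

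On the strand of the gene, GNCGCT was found in 11 of 13 alpha promoters, 14 of 14 beta promoters and 19 of 20 gamma promoters, against 28.4% of all 27305 promoters. On either strand it was found in 12 alpha, 14 beta and 19 gamma promoters, against 43.9% of all. On the strand of the gene there were 12 alpha, 16 beta and 26 gamma matches. Their median distance before the start of the gene was 53.5 bases in the alpha, 62.5 in the beta and 62 in the gamma promoters. The ranges were 18 to 83, -1 to 86 and -32 to 201 bases, where a negative value lies after the start. The H19 promoter did not hold GNCGCT. Since the letters were chosen after the promoters had been read, their high count in the protocadherin promoters is not a test of the element.

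The other 4 motifs were searched on both strands of the same promoters. The CTCF core consensus, of 13 letters, was in none of the alpha, beta or gamma promoters and in 0.439% of all promoters. Its inner part AGNNGGC was in 2 of 13 alpha, 8 of 14 beta and 6 of 20 gamma promoters, against 64.0% of all. CACGTG, the E-box bound by MYC, was in 3 alpha promoters and in no beta or gamma promoter, against 7.43% of all. AAAGTCCA, a HNF4A motif, was in 1 alpha promoter and in no beta or gamma promoter, against 1.13% of all. The AGNNGGC letters lie within the consensus, so those matches can overlap. The H19 promoter held none of these motifs. A match is only a run of letters, and these positions are on another build than the peaks, so no peak was assigned to a promoter.

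Values are given as deposited tags in a peak, as RPM, the tags per 1000000 filtered tags of the library, as the fold over local background of the peak caller, and as its score, which is the negative log10 of its p-value multiplied by 10. Peaks below a score of 50 were not listed, so a place with no listed peak may still be bound weakly. A peak or site is called kept where the same protein was listed there in both phases. The filtered tags ranged from 7362169 to 16813394 over the 12 libraries. The M-phase library was 1.89 times as deep as the S-phase library for CTCF (14186052 and 7520364 tags) and 2.19 times as deep for RAD21 (16510005 and 7531890 tags). In S phase, CTCF and its goat IgG came from a differently named alignment set than the other S-phase libraries, and the estimated fragment length was 308 bp for CTCF in S phase and 191 bp in M phase, against 213 and 226 bp for RAD21. With 1 library per target and phase, no difference between phases has a replicate check. Intervals are 95%, exact Clopper-Pearson for shares and exact binomial for ratios of tags, and cover counting error only. Peaks of 1 library are not replicates of a condition, and neighbouring genes of a protocadherin cluster have similar sequences. No source used here gives the handling of tags that map to several places.

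The H19-IGF2 window was densely bound by both proteins. It held 12 CTCF peaks in S and 12 in M phase, or 42.9 per Mb in each, against 10.4 and 8.87 per Mb of effective genome in the whole lists. RAD21 had 13 peaks in S and 10 in M phase, or 46.4 and 35.7 per Mb, against 9.86 and 8.35. Merging overlapping CTCF and RAD21 peaks of both phases gave 14 sites here, with a median gap of 14.1 kb between neighbours (range 0.2 to 48.3 kb). Both proteins were listed in both phases at 7 of the 14 sites (50%, 95% interval 23.0 to 77%), and the 35.2% of all 39629 merged sites in the series lies inside that interval.

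**Figure D1:**
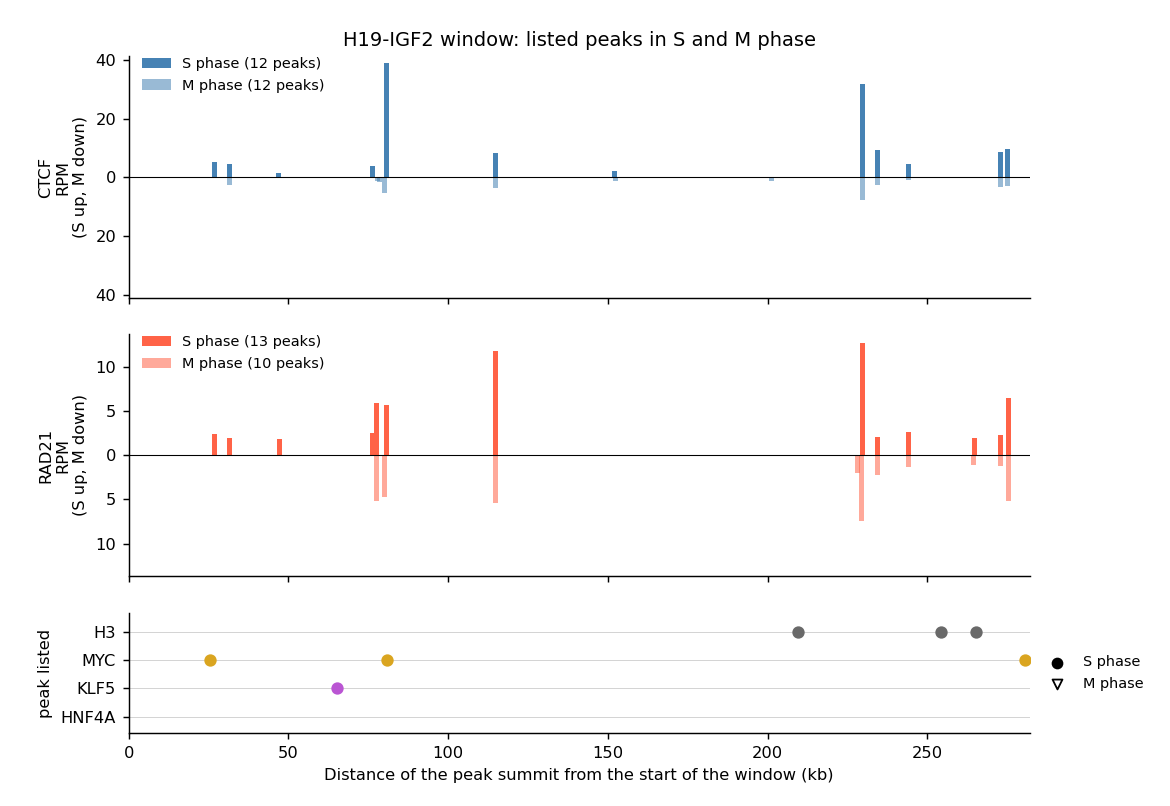
Listed peaks in the H19-IGF2 window by the distance of their summit from the start of the window (kb), with bars for CTCF and RAD21 in RPM (S phase upward, M phase downward) and symbols for HNF4A, KLF5, MYC and H3. The S-phase CTCF bars of 38.8 and 31.6 RPM are the tallest, and no HNF4A, KLF5, MYC or H3 peak was listed in M phase.

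The strongest site of the window spanned 4512 bp at chr11:1977033-1981544. Its S-phase CTCF peak had 292 tags (38.8 RPM, 59.22-fold) and ranked 48 of 28474 by score, within the top 0.169% of the list. In M phase the same span held 3 CTCF peaks with 121 tags in all (8.53 RPM), a ratio of M to S of 0.220 (0.176 to 0.272). RAD21 had 2 peaks here in each phase, with 88 tags in S phase (11.7 RPM) and 164 in M phase (9.93 RPM), a ratio of 0.850 (0.652 to 1.11). The CTCF level in RPM was thus lower in M phase beyond counting error, and the RAD21 ratio had 1 inside its interval. The nearest CTCF summits of the phases lay 531 bp apart, and the nearest RAD21 summits 56 bp apart.

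A second strong site, at chr11:2127607-2130909, had 238 CTCF tags in S phase (31.6 RPM, 48.96-fold) and 108 in M phase (7.61 RPM), a ratio of 0.241 (0.190 to 0.303). Its RAD21 tags were 96 in S phase (12.7 RPM) and 155 in M phase (9.39 RPM, over 2 peaks), a ratio of 0.737 (0.567 to 0.960). Of these M-phase peaks, 1 (123 tags, 7.45 RPM) overlapped the S-phase RAD21 peak and the other (32 tags) did not. Both proteins were lower by RPM in M phase here, CTCF by more.

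The site at chr11:2013983-2015794 had the highest-ranked S-phase RAD21 peak of the window, with 89 tags (11.8 RPM, 46.95-fold) and a rank of 102 of 27122 by score. M phase also gave 89 tags (5.39 RPM), a ratio of 0.456 (0.336 to 0.619). CTCF had 62 tags in S phase (8.24 RPM, rank 5421 of 28474) and 51 in M phase (3.60 RPM), a ratio of 0.436 (0.295 to 0.642). At this site the intervals of the 2 ratios overlap.

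The other 4 sites with both proteins in both phases lay in the last part of the window. At chr11:2133646-2135450, CTCF had 70 tags in S phase (54.63-fold) and 35 in M phase, and RAD21 had 16 and 36. At chr11:2143329-2144654, CTCF had 34 and 15 tags, and RAD21 20 and 22. At chr11:2171963-2173637, CTCF had 66 and 46 tags, and RAD21 17 and 19. At chr11:2174268-2175948, CTCF had 72 and 44 tags, and RAD21 49 and 85. By RPM, the CTCF ratios of these 4 sites ran from 0.234 to 0.369, each with an upper bound below 1. Their RAD21 ratios ran from 0.502 to 1.03, and 3 of the 4 intervals held 1.

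The remaining 7 sites held fewer peaks, none with more than 39 CTCF or RAD21 tags. At the 3 sites chr11:1926009-1927698, chr11:1946108-1947348 and chr11:1975584-1976880 both proteins were listed in S phase only, with 39, 12 and 28 CTCF tags and 18, 14 and 19 RAD21 tags. At chr11:1930828-1932052 CTCF was listed in both phases, with 33 tags in S and 37 in M phase, and RAD21 in S phase only, with 15 tags. By fold and score, CTCF at this site was lower in S phase (7.58-fold, score 76.04) than in M phase (17.26-fold, score 202.04). CTCF alone was listed at chr11:2051773-2052761, with 15 tags in S and 16 in M phase, and at chr11:2101091-2101796, with 16 tags in M phase only. RAD21 alone was listed at chr11:2164212-2165074, with 15 tags in S and 18 in M phase, and an H3 peak of S phase overlapped it. This was the only one of the 46 sites in the 3 windows without CTCF in either phase. Sites without CTCF made up 9.55% (RAD21 in S phase only), 5.08% (M phase only) and 3.02% (both phases) of all merged sites.

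The beta-globin window held few sites, at a density below the whole list for CTCF and above it for RAD21. It held 1 CTCF peak in each phase (6.67 per Mb), against 10.4 and 8.87 per Mb in the whole lists, and 2 RAD21 peaks in each phase (13.3 per Mb), against 9.86 and 8.35. The sites lay 85.6 kb apart, and RAD21 was listed at both in both phases, while CTCF was listed at one in S phase and at the other in M phase. At chr11:5182146-5183112, RAD21 had 13 tags in S phase (12.91-fold) and 28 in M phase (6.66-fold), or 1.73 and 1.70 RPM, a ratio of 0.983 (0.493 to 2.07). CTCF had 14 tags there in S phase (9.87-fold) and no listed peak in M phase. At chr11:5268699-5269845, RAD21 had 13 tags in S phase (7.82-fold) and 33 in M phase (7.37-fold), a ratio of RPM of 1.16 (0.593 to 2.40). CTCF had 13 tags there in M phase (11.17-fold) and no listed peak in S phase. Where both were listed in the same phase, the CTCF and RAD21 summits lay 12 bp apart in S phase and 67 bp apart in M phase. All CTCF and RAD21 peaks of this window had scores below 100, so the alternation of CTCF between the sites rests on peaks near the cutoff.

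The protocadherin window held many small CTCF peaks in S phase and far fewer in M phase, whereas slightly more RAD21 peaks were listed in M phase than in S phase. CTCF had 30 peaks in S and 10 in M phase, or 39.5 and 13.2 per Mb. RAD21 had 9 in S and 13 in M phase, or 11.8 and 17.1 per Mb. The higher RAD21 number in M phase rests on peaks near the cutoff: with a score of at least 100 there were 6 in each phase, and with an FDR under 5% there were 9 in S and 6 in M phase. For CTCF these numbers were 18 and 8 by score and 21 and 5 by FDR, so CTCF had fewer in M phase under each rule. The FDR limit was stricter on M-phase peaks throughout. Over the whole CTCF lists, 20190 of 28474 S-phase and 8917 of 24391 M-phase peaks passed it. For RAD21, 27122 of 27122 S-phase and 14307 of 22966 M-phase peaks passed. The merged map had 30 sites, with a median gap of 12.6 kb (range 3.6 to 156.2 kb). CTCF was listed at every one of the 30 sites in at least 1 phase, at 20 in S phase only, at 9 in both and at 1 in M phase only. RAD21 was listed at 14 of them, at 7 in both phases, at 6 in M phase only and at 1 in S phase only. Of all merged sites in the series, 9.89% had CTCF in S phase only and no RAD21. CTCF in S phase only with RAD21 in both phases, S phase only or M phase only made up 6.65%, 3.83% and 1.58%. RAD21 in M phase only made up 2.76% with CTCF in both phases, 0.785% with CTCF in M phase only and 5.08% without CTCF. RAD21 was absent at a further 6.29% with CTCF in both phases and 6.16% with CTCF in M phase only.

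**Figure D2:**
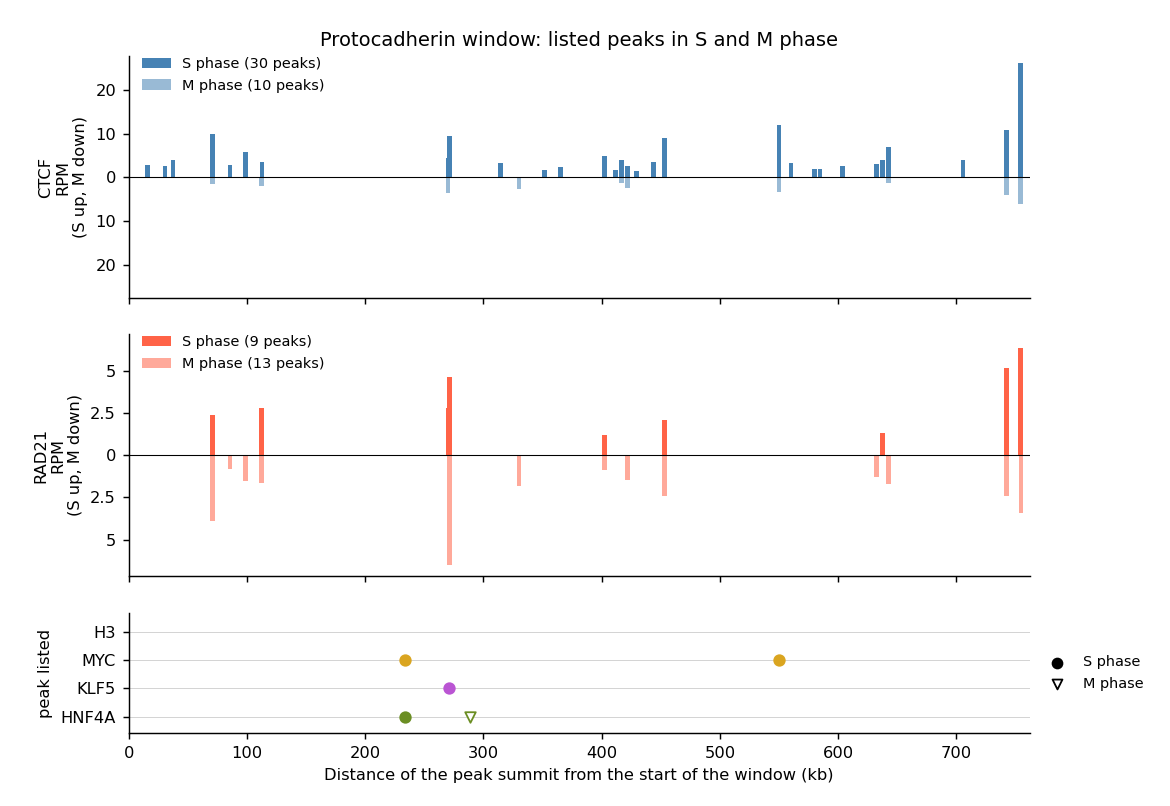
Listed peaks in the protocadherin window by the distance of their summit from the start of the window (kb), drawn as for H19-IGF2. The 30 S-phase CTCF peaks reach up to 26.1 RPM and recur through 3 runs of sites, and 10 CTCF peaks and 13 RAD21 peaks point downward for M phase.

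The sites fell into 3 runs parted by the 2 widest gaps, 156.2 and 95.2 kb, a division made after the map had been seen. The first run, of 97.8 kb from 140145279, had 7 sites. The second, of 184.8 kb from 140399230, had 12 sites. The last, of 206.6 kb from 140679217, had 11. Of the S-phase CTCF peaks, 2 of 7, 4 of 12 and 4 of 11 had an M-phase CTCF peak in the first, second and last run. In the whole S-phase list, 69.4% had one. Median gaps between sites were 12.3, 12.5 and 14.2 kb, and median S-phase CTCF tags were 26.0, 25.5 and 29. S-phase CTCF peaks without an M-phase partner were thus found in all 3 runs. No gene models on hg18 were used here, so the runs were not assigned to clusters.

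The strongest protocadherin site was the last one, at chr5:140883693-140885769. Its S-phase CTCF peak had 196 tags (26.1 RPM, 51.65-fold) and ranked 226 of 28474 by score. M phase gave 87 tags (6.13 RPM), a ratio of 0.235 (0.181 to 0.304). RAD21 had 48 tags in S phase (6.37 RPM) and 57 in M phase (3.45 RPM), a ratio of 0.542 (0.363 to 0.813). Both proteins were lower by RPM in M phase, and their S-phase summits fell on the same base. The neighbouring site at chr5:140871423-140873098 had 81 and 57 CTCF tags and 39 and 40 RAD21 tags, with ratios of RPM of 0.373 (0.261 to 0.530) and 0.468 (0.293 to 0.747). By fold and score, however, its CTCF peak was lower in S phase (8.69-fold, score 163.66) than in M phase (19.83-fold, score 331.56).

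The first site of the second run, at chr5:140399230-140402062, had the highest CTCF fold of the window. CTCF had 105 tags in S phase over 2 peaks (14 RPM, up to 58.06-fold) and 52 in M phase (3.67 RPM), a ratio of 0.263 (0.185 to 0.369). The M-phase CTCF peak overlapped both S-phase peaks. Its summit lay 6 bp from that of the weaker one (34 tags, 15.0-fold), away from the summit of the 58.06-fold peak (71 tags). RAD21 had 56 tags in S phase over 2 peaks (7.44 RPM) and 108 in M phase (6.54 RPM), a ratio of 0.880 (0.631 to 1.24). A KLF5 peak of 14 tags overlapped it in S phase.

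In the first run, the ratios of the 2 proteins lay furthest apart at its site with the most tags. At chr5:140200168-140202241, CTCF had 75 tags in S phase (9.97 RPM) and 23 in M phase (1.62 RPM), a ratio of 0.163 (0.0972 to 0.262), the lowest of the kept CTCF sites in the 3 windows. RAD21 had 18 and 64 tags there (2.39 and 3.88 RPM), a ratio of 1.62 (0.949 to 2.91), the highest of the kept RAD21 sites in the 3 windows. The intervals of these ratios do not overlap. At chr5:140241842-140243066, CTCF had 26 and 27 tags, and RAD21 21 and 27, with ratios of RPM of 0.551 (0.309 to 0.982) and 0.587 (0.319 to 1.09). Here the intervals overlap.

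RAD21 was listed in M phase only at 6 sites, with M-phase scores of 53.23 to 116.23. The deposited FDR of the RAD21 peak was under 5% at 1 of the 6, against 691 of the 4124 M-phase RAD21 peaks of the whole list without an S-phase peak. The 1 site was chr5:140459743-140460696, where neither protein was listed in S phase, and M phase had 38 CTCF tags and 30 RAD21 tags (10.44-fold). At chr5:140772024-140773441, RAD21 had 28 tags in M phase, and CTCF had 53 tags in S and 17 in M phase, a ratio of RPM of 0.170 (0.0923 to 0.298). At chr5:140551612-140552531, RAD21 had 24 tags in M phase, and CTCF had 19 and 36 tags, a ratio of RPM of 1.00 (0.561 to 1.85). The 3 others, at chr5:140214831-140216250, chr5:140227833-140229731 and chr5:140762190-140763031, had 21, 44 and 23 CTCF tags in S phase and no listed CTCF peak in M phase, where RAD21 had 13, 25 and 21 tags. At these 3 sites CTCF was listed in S phase without RAD21, and RAD21 in M phase without CTCF.

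RAD21 was also listed where CTCF was listed in S phase alone at 3 further sites. At chr5:140582183-140584041, CTCF had 68 tags in S phase, and RAD21 had 16 tags in S and 40 in M phase (ratio of RPM 1.14, 0.625 to 2.18). These 68 tags were the most of any S-phase CTCF peak in the windows without an M-phase peak. At chr5:140531451-140533169, CTCF had 36 tags in S phase, and RAD21 9 and 14. At chr5:140766991-140768232, CTCF had 30 tags and RAD21 10 in S phase, and neither was listed in M phase. The last is the only site of the window with RAD21 in S phase alone.

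The remaining 16 sites had no RAD21 peak in either phase. CTCF was listed in both phases at 2 of them. At chr5:140679217-140681134, CTCF had 90 tags in S phase (12.0 RPM, 5.66-fold) and 48 in M phase (3.38 RPM, 15.58-fold), and a MYC peak of 13 tags overlapped the site in S phase. At chr5:140546000-140547158, CTCF had 29 tags in S phase (22.56-fold) and 19 in M phase. The larger of the 2 sites was thus among the 4 highest of the window by S-phase CTCF tags, without RAD21. By score its S-phase peak was weak, at 79.45 (rank 22477 of 28474), with a deposited FDR of 7.84%. Its M-phase peak had a score of 176.77.

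At the other 14 of these sites CTCF was listed in S phase only. In the first run they started at 140145279, 140160414 and 140166542, with 21, 19 and 29 tags. In the second they started at 140443670, 140481126, 140494501, 140541344, 140559045 and 140573207, with 24, 13, 17, 13, 11 and 27 tags. In the last they started at 140689631, 140709187, 140714455, 140732978 and 140835262, with 25, 15, 14, 19 and 29 tags. Their folds reached 26.13 at chr5:140573207-140573910 and 24.94 at chr5:140835262-140836362. Sites with CTCF in S phase only and RAD21 in neither phase made up 14 of 30 sites here (46.7%, 28.3 to 65.7%), against 9.89% of all merged sites in the series. None of the 14 H19-IGF2 sites and neither of the beta-globin sites had that pattern. Both proteins in both phases were found at 5 of the 30 protocadherin sites (16.7%, 5.64 to 34.7%), and the 35.2% of all sites lies just above that interval.

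Across the 3 windows, 19 of 43 S-phase CTCF peaks overlapped an M-phase CTCF peak (44.2%, 29.1 to 60.1%), against 69.4% of the whole S-phase list. By window, the share was 9 of 12 at H19-IGF2 (75%, 42.8 to 94.5%), 0 of 1 at beta-globin and 10 of 30 at the protocadherins (33.3%, 17.3 to 52.8%). The share of the whole list lies inside the interval at H19-IGF2 and above it at the protocadherins. The intervals of these windows overlap, and their difference was not tested. In the other direction, 20 of 23 M-phase CTCF peaks overlapped an S-phase peak (87.0%), against 82.8% of the M-phase list.

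RAD21 peaks were kept at 19 of 24 (79.2%, 57.8 to 92.9%), against 69.7% of the S-phase list. The share was 9 of 13 at H19-IGF2 (69.2%, 38.6 to 90.9%), 2 of 2 at beta-globin and 8 of 9 at the protocadherins (88.9%, 51.8 to 99.7%). The share of the whole list lies inside each of these intervals. With an FDR under 5% required in both lists, 12 of 24 RAD21 peaks were kept (50%) and 50.5% of the whole list. Of the M-phase RAD21 peaks, 18 of 25 overlapped an S-phase peak (72.0%, 50.6 to 87.9%), against 82.0% of the M-phase list. At the protocadherins this was 7 of 13 (53.8%, 25.1 to 80.8%), an interval that ends just below the share of the list.

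**Figure D3:**
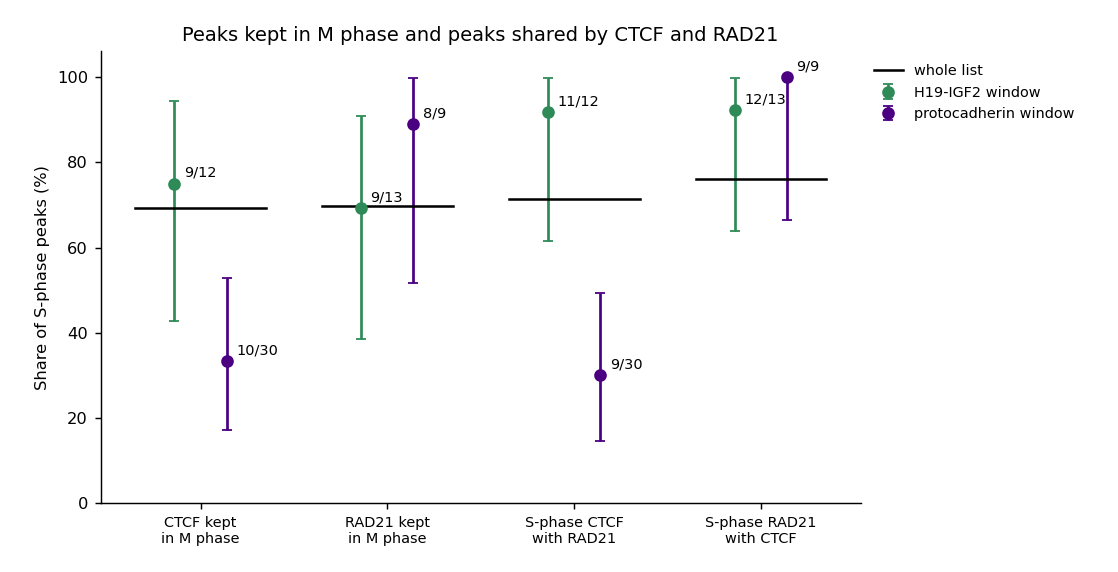
Share of S-phase peaks (%) kept in M phase and shared between CTCF and RAD21, for the H19-IGF2 and protocadherin windows, as points with 95% Clopper-Pearson intervals over peaks and counts beside them, and the whole list as black lines. The protocadherin shares of 33.3% for kept CTCF peaks and 30.0% for CTCF peaks with RAD21 lie below the lines at 69.4% and 71.4%.

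Peak strength went with the kept share, so the CTCF peaks were also read in 3 equal groups of the score of the whole S-phase list. The protocadherin peaks were small: their median was 26.5 tags (range 11 to 196), against 43.0 in the whole list and 50.5 at H19-IGF2. In the weakest group (scores 50 to 106.61), 1 of 12 protocadherin peaks was kept, against 41.1% of the list. In the middle group (106.62 to 236.03) it was 6 of 15 (40.0%), against 73.6%. In the strongest group (from 236.08) it was 3 of 3 at the protocadherins and 6 of 6 at H19-IGF2, against 93.5%. At H19-IGF2, 2 of 3 peaks were kept in the weakest group and 1 of 3 in the middle group. For RAD21, 7 of 10 peaks of the 3 windows were kept in the weakest group of its own list, against 38.0%, 4 of 6 in the middle group, against 74.6%, and 8 of 8 in the strongest, against 96.6%. The protocadherin peaks that were kept had a median of 62 tags (19 to 196), and those not kept had a median of 22.0 tags (11 to 68), so the ranges overlapped.

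The kept share of CTCF peaks at the protocadherins stayed below that of the whole list under each rule below, but not always beyond counting error. With at least 50% of each peak shared it was 7 of 30 (23.3%, 9.93 to 42.3%), against 52.9% of the whole list, and with summits within 100 bp it was 9 of 30 (30.0%, 14.7 to 49.4%), against 61.6%. With a score of at least 100 in both lists it was 7 of 18 (38.9%, 17.3 to 64.3%), against 61.0%, and with an FDR under 5% in both lists 5 of 21 (23.8%, 8.22 to 47.2%), against 40.1%. The share of the list lies outside the interval under the first 2 rules and inside it under the last 2, which admitted fewer peaks.

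CTCF and RAD21 were listed together at most H19-IGF2 peaks and at few protocadherin CTCF peaks in S phase. In the 3 windows, 21 of 43 S-phase CTCF peaks overlapped a RAD21 peak (48.8%, 33.3 to 64.5%), against 71.4% of the list. The share was 11 of 12 at H19-IGF2 (91.7%, 61.5 to 99.8%), 1 of 1 at beta-globin and 9 of 30 at the protocadherins (30.0%, 14.7 to 49.4%). The intervals of H19-IGF2 and the protocadherins do not overlap. Seen from RAD21, 22 of 24 S-phase peaks overlapped CTCF (91.7%, 73.0 to 99.0%), against 76.2% of the list, with 9 of 9 at the protocadherins. With at least 50% of each peak shared, 16 of 24 did (66.7%), against 59.8% of the list.

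In M phase, 18 of 23 CTCF peaks overlapped a RAD21 peak (78.3%, 56.3 to 92.5%), against 67.6% of that list, and 8 of 10 did at the protocadherins (80.0%, 44.4 to 97.5%). Of the M-phase RAD21 peaks, 17 of 25 overlapped CTCF (68.0%, 46.5 to 85.1%), against 71.4% of that list, and 8 of 13 did at the protocadherins (61.5%, 31.6 to 86.1%). In M phase the whole-list share lies inside each of these intervals. Among S-phase CTCF peaks of the protocadherins, 6 of 9 with RAD21 were kept and 4 of 21 without it, against 79.5% and 44.1% of the whole list.

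Where both proteins were listed, their summits were close, taking the nearest pair at each site. In S phase the median distance between CTCF and RAD21 summits was 88 bp at 11 H19-IGF2 sites (20 to 344 bp) and 55 bp at 8 protocadherin sites (0 to 114 bp). In M phase it was 68.0 bp at 7 sites (18 to 210 bp) and 47.5 bp at 8 sites (17 to 1012 bp). The widest distance, 1012 bp, was at the protocadherin site with several S-phase peaks at chr5:140399230-140402062.

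At kept sites CTCF was lower by RPM in M phase than in S phase, as it was over the whole list. Over the 16 kept CTCF peaks of the windows with 1 partner each, the median ratio of M to S was 0.336 (95% interval of the median 0.235 to 0.551, range 0.163 to 1.00), and 15 of 16 ratios were below 1. The median over the 19311 such peaks of the whole list was 0.330, with quartiles of 0.243 and 0.462. Of these 19311 peaks, 19003 had a ratio below 1. The median was 0.347 at 8 H19-IGF2 peaks and 0.315 at 8 protocadherin peaks. CTCF peaks were also narrower in M phase at 15 of 16, with a median width of 1676 bp in S phase and 944 bp in M phase. Over the whole list, 18586 of 19311 were narrower in M phase, with median widths of 1476 and 900 bp. The part of the fragment length and of library depth in these ratios was not tested. Per kb of peak width the CTCF median was 0.571, and without scaling to library depth it was 0.633.

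For RAD21 the median ratio over 17 kept peaks was 0.710 (0.542 to 0.983, range 0.456 to 1.62), against 0.745 in the whole list (quartiles 0.597 and 0.938). It was 0.585 at 9 H19-IGF2 peaks, 1.07 at 2 beta-globin peaks and 0.648 at 6 protocadherin peaks. Without scaling to depth the RAD21 median was 1.56, since the M-phase library was the deeper one, so the direction rests on the scaling. RAD21 widths had a median of 997 bp in S phase and 1100 bp in M phase.

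**Figure D4:**
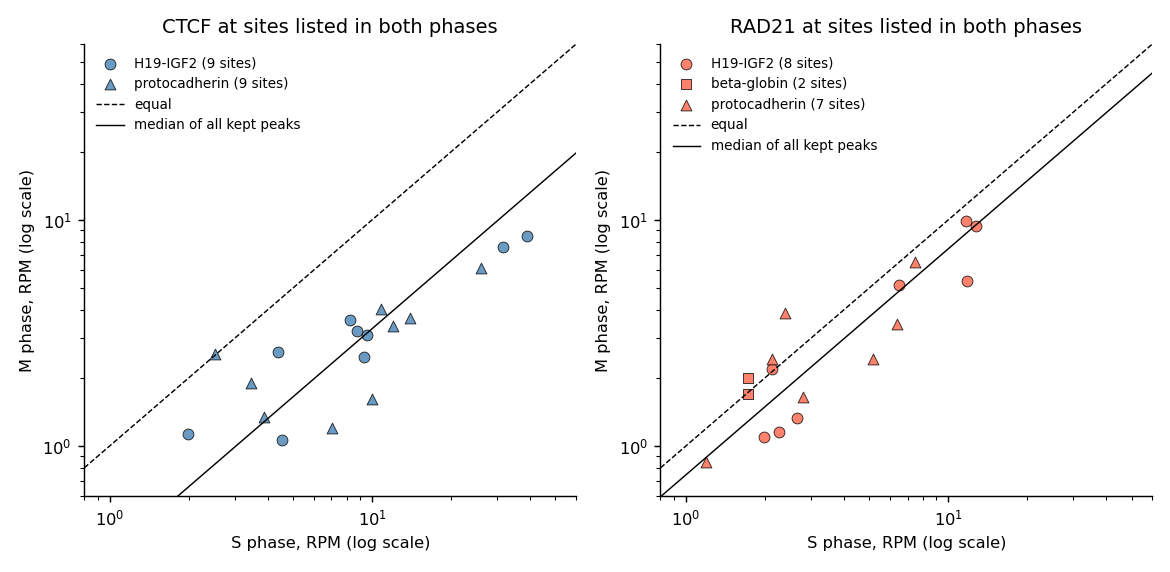
RPM in M phase against S phase (both axes log scale) at the sites of the 3 windows listed in both phases, with tags summed where a site had several peaks, for CTCF on the left and RAD21 on the right. The dashed line marks equal values and the solid line the median ratio of all kept peaks, 0.330 for CTCF and 0.745 for RAD21, and the points of the 3 windows scatter about the solid lines.

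Few transcription factor peaks lay in the windows. HNF4A is a nuclear receptor that acts in gut and liver epithelium, KLF5 binds GC-rich DNA in crypt cells of the gut, and MYC promotes growth as a helix-loop-helix protein. In S phase there were 2 HNF4A, 2 KLF5 and 5 MYC peaks, and none of the 9 had an M-phase peak of the same factor. In the whole lists the kept share was 12.3% (HNF4A), 11.4% (KLF5) or 12.6% (MYC), all under the upper bound of 33.6% that 0 of 9 allows. All 3 S-phase H3 peaks of the windows were at H19-IGF2 (10.7 per Mb, against 1.20 per Mb in the whole list), and none was kept, against 2.83% of the H3 list. The chromatin control was thus itself dense in that window, and its part in the CTCF, RAD21 and MYC densities there was not tested.

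At H19-IGF2 there were 3 MYC peaks and 1 KLF5 peak in S phase, or 10.7 and 3.57 per Mb, against 4.34 and 2.16 per Mb in the whole lists. The MYC peak at chr11:1925047-1926868 had 61 tags (11.24-fold, score 265.41) and overlapped the first of the 3 sites at which CTCF and RAD21 were listed in S phase only. A MYC peak of 14 tags at chr11:1980075-1981005 lay within the strongest CTCF site of the window, and a MYC peak of 25 tags at chr11:2179581-2181072 lay 3.63 kb from the nearest site. The KLF5 peak at chr11:1964694-1965736, with 15 tags, lay 9.85 kb from the nearest site. Only the first of these 4 had a score of at least 100. The H3 peaks had 16 tags at chr11:2109176-2109878, 32 tags at chr11:2153572-2154623 and 51 tags at chr11:2164827-2166095.

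At beta-globin the only such peak was HNF4A in S phase at chr11:5168905-5169817, with 20 tags (11.29-fold), 12.3 kb from the nearest site. That is 6.67 per Mb, against 5.61 in the HNF4A list. The protocadherin window held 2.63 per Mb for MYC and 1.32 each for HNF4A and KLF5 in S phase, below the 4.34, 5.61 and 2.16 of the whole lists. There a MYC peak of 18 tags at chr5:140363537-140364429 and a HNF4A peak of 17 tags at chr5:140363660-140364497 overlapped each other in S phase, in the 156.2-kb gap without CTCF or RAD21, and 34.8 and 34.7 kb from the nearest site. The KLF5 peak at chr5:140400746-140401518 and the MYC peak at chr5:140679752-140680570 overlapped CTCF sites given above. The only factor peak of M phase in any window was HNF4A at chr5:140418131-140418744, with 15 tags, a score of 56.54 and a deposited FDR of 100%. It had no S-phase HNF4A partner, against 79.9% of the M-phase HNF4A list that had one.

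Overlap with a factor was uncommon at these CTCF and RAD21 peaks, as it was over the whole lists. In S phase, 3 of 24 RAD21 peaks overlapped a HNF4A, KLF5 or MYC peak (12.5%, 2.66 to 32.4%), against 17.4% of the RAD21 list. For CTCF it was 4 of 43 (9.30%, 2.59 to 22.1%), against 15.0% of the CTCF list. In M phase it was 0 of 25 RAD21 peaks (upper bound 13.7%), against 4.23%, and 0 of 23 CTCF peaks (upper bound 14.8%), against 3.09%. Each whole-list share lies inside the interval.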

How the data were processed

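The data are deposited peak lists of 6 targets in S and M phase (1 library each), with groups taken from the sample titles. Per the submitters' processing notes, reads went through CASAVA 1.4, BWA, hg18 and MACS 1.4. Per the file headers, MACS 1.4.0rc2 called peaks for each target and phase against IgG with a p-value cutoff of 1e-05. Tags in a peak were deposited as raw whole-number counts. The score, as deposited, is the negative log10 of the MACS p-value multiplied by 10. The deposited fold enrichment is a ratio over the local background, and the deposited FDR is a percent. In the labels, the number of M-phase KLF5 peaks stands with the rabbit IgG library of M phase.

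Lists were compared by overlap of at least 1 bp in Python 3.11.15 (scipy 1.17.1, pandas 2.3.3, numpy 2.4.6), and figures were drawn with matplotlib 3.10.9. Steps were tested on simulated data. CTCF and RAD21 peaks of both phases were merged into sites where they overlapped. The rule named every H19-IGF2 and beta-globin site, the protocadherin sites of highest CTCF fold, those lacking a protein or a phase and those with a factor, and every factor and H3 peak. Alternatives covered overlap, score, FDR, window edges, merging and scaling. No test across samples exists with 1 library per group. Members and lists were chosen with earlier results of these data known. No hg18 genome was used here, so peak sequences were not analysed here. The promoter table matched 4 of the 7 named genes.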

Additional observations from a re-analysis of the deposited data

How the results depend on the processing

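Of 117 alternative values for 26 results, 98 stayed within the interval of the reported value or within 1.5 times the reported count, and the other 19 are given here. With an FDR under 5% in both lists, the kept share of RAD21 peaks was 50%, and the M-phase factor peak of the protocadherin window was lost, leaving 0. With at least 50% of each peak shared, 66.7% of S-phase RAD21 peaks overlapped CTCF. With a score of at least 100, the sites at beta-globin numbered 0 and those at the protocadherins 19, the RAD21 peaks with a factor fell to 0 of 14, and S-phase factor peaks numbered 1 at H19-IGF2, 0 at beta-globin and 0 at the protocadherins, with 0 in M phase at the protocadherins. In the protocadherin window, 18 S-phase CTCF peaks and 6 M-phase RAD21 peaks had a score of at least 100, and 5 M-phase CTCF peaks and 6 M-phase RAD21 peaks had an FDR under 5%, limits applied after seeing the data. With windows widened by 50 kb on each side, H19-IGF2 held 7 S-phase factor peaks. The CTCF median ratio was 0.571 per kb of width and 0.633 without scaling, and 1.02 once divided by the median of the whole list, a step that sets the typical peak to 1 by construction. The CTCF median was thus below 1 with and without depth scaling. The RAD21 median ratio was 1.56 without scaling, so its direction rests on the scaling to depth. No paired analysis was possible because each target had 1 library per phase and the labels give no replicate numbers, and for the same reason no replicate could be left out. Peaks near the score cutoff of 50, which include all CTCF and RAD21 peaks at beta-globin, are the least certain.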
